A study of Homo sapiens with 30 samples.

Results

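The 39 human HOX genes were examined in OCI-Ly1, a diffuse large B-cell lymphoma cell line, for 2 histone marks measured by chromatin immunoprecipitation and sequencing. They were taken by symbol (HOXA, HOXB, HOXC or HOXD and a number) from the 59792 genes of the RefSeq table of GRCh38.p14. There were 11 genes in HOXA on chromosome 7, 10 in HOXB on chromosome 17, 9 in HOXC on chromosome 12 and 9 in HOXD on chromosome 2. Consensus peaks that overlapped a HOX gene or lay within 2 kb of one were the regions measured, which gave 17 of 21268 H3K4me3 peaks and 12 of 63580 H3K27ac peaks. The rule itself used no measured value. The peaks are regions of signal called by the authors, and the choice was made with earlier results of these data known.

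The cells had received 0.01% DMSO, the vehicle, or JIB-04, which inhibits histone demethylases of the Jumonji family, at a dose of 150 nM or 500 nM. Each treatment had 2 libraries per mark, so the 12 libraries of H3K4me3 and H3K27ac were used of 30 samples in all, and every mean is over n = 2. All groups are 1 line, the duration of treatment is not given in the labels, and nothing there says that replicates came from separate cultures. The p-values therefore measure the spread between these libraries, which may be technical. The fit pools that spread over peaks. Beyond read counting, its coefficient of variation was 0.0099 in H3K4me3 and 0.0759 in H3K27ac. Very small p-values thus reflect mainly read counts, and how separate cultures would vary is not measured.

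HOX genes encode homeodomain transcription factors that give cells their position along the body axis, and the order of the genes in a cluster follows the order of the body parts in which they act. Trithorax-type complexes, which write H3K4me3 at promoters, keep them active, and Polycomb complexes, which write H3K27me3, keep them silent. In blood, several HOXA and HOXB genes are active in stem and progenitor cells and are shut down as cells mature, and their persistence is known from acute leukaemia. H3K4me3 marks mainly active promoters, and H3K27ac marks active promoters and enhancers. H3K4 and H3K9 are among the residues from which Jumonji demethylases remove methyl groups.

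Of 10 germinal-centre B-cell marker genes, 10 had a peak of each mark within 2 kb. The shares over all protein-coding genes were 67.6% in H3K4me3 and 63.1% in H3K27ac. Of 5 myeloid markers, CD14 had an H3K4me3 peak and none had an H3K27ac peak, and of 6 T-cell markers 3 had an H3K4me3 peak and 5 an H3K27ac peak. The presence of an H3K27ac peak thus hardly set B-cell markers apart from T-cell markers. Total counts in peaks were 9686420 to 12327122 for H3K4me3 and 4360660 to 5410292 for H3K27ac, with a median of 263 to 328 and of 21 to 24 per peak and library. The 2 H3K4me3 libraries at 150 nM differed by less than sampling noise, with a chi-square of 0.928 per degree of freedom. DMSO replicate 1 and 150 nM replicate 1 also did (0.953), so the 150 nM pair was kept as 2 libraries. Values are given as CPM, the usual scaling of counts to the library total, here the reads in tested peaks, and a change shared by every peak would not appear in them.

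HOXA genes carried most of the marked chromatin. An H3K4me3 peak lay within 2 kb of 17 of the 39 HOX genes (43.6%), against 67.6% of 20056 protein-coding genes, and an H3K27ac peak lay within 2 kb of 11 (28.2%), against 63.1%. Both marks were present at 10 genes, H3K27ac alone at HOXC11, and neither at 21. In HOXA, 9 of 11 genes had an H3K4me3 peak and HOXA2 and HOXA4 had none. In HOXB, 3 of 10 genes had one (HOXB3, HOXB7 and HOXB8), and no H3K27ac peak lay near any of the 10. In HOXC, HOXC4, HOXC5 and HOXC6 had one, and in HOXD, HOXD12 and HOXD13 were near the same peak. The 21 genes with neither mark were HOXA2, HOXA4, HOXB1, HOXB2, HOXB4, HOXB5, HOXB6, HOXB9, HOXB13, HOXC8, HOXC9, HOXC10, HOXC12, HOXC13, HOXD1, HOXD3, HOXD4, HOXD8, HOXD9, HOXD10 and HOXD11. The longest stretch of HOXA without an H3K4me3 peak spanned 44.8 kb of 107.1 kb and held HOXA2 and HOXA4. In HOXB it spanned 117.3 kb of 200.2 kb.

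Promoter sequence was read for the HOX genes that the RefSeq promoter table (GRCh38.p14) lists, which were 20 of the 39, with 26 distinct windows of 300 bases (250 before and 50 after the transcription start). Among the genes with no window listed were HOXA5, HOXB2 to HOXB9, HOXB13, HOXC6, HOXC8 to HOXC13 and HOXD9. The windows shown are the 250 bases before the start, on the minus strand and 5′ to 3′, with CG pairs in capitals because CG-rich promoters are where H3K4me3 is usually found. The HOXA6 window and both HOXA10 windows lay over H3K4me3 peaks that were higher at 500 nM, the HOXA13 window lay over a peak that was not called, and the HOXA7 window lay over no peak.
HOXA6, chr7:27147775-27148024: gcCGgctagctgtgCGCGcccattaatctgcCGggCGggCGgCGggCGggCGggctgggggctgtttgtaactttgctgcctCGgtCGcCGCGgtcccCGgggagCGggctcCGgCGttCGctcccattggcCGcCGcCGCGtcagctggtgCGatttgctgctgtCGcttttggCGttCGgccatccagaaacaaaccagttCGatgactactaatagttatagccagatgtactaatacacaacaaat
HOXA10 inner start, chr7:27174321-27174570: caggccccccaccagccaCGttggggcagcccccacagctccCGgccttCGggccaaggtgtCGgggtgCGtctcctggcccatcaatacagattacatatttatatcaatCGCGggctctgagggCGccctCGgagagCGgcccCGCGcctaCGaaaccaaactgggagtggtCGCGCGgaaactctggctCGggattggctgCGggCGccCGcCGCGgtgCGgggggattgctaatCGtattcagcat
HOXA10 outer start, chr7:27179862-27180111: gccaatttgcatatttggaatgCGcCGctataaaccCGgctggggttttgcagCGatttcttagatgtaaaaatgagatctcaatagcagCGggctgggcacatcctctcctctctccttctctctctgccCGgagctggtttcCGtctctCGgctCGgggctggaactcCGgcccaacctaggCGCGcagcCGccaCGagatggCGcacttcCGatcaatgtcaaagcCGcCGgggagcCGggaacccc
HOXA13, chr7:27200092-27200341: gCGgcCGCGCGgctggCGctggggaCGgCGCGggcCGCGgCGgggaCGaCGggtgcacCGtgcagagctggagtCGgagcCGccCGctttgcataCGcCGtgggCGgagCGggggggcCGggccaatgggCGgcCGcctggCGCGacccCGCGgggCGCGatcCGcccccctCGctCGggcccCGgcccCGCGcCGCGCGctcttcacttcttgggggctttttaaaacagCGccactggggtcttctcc
HOXA7, chr7:27156676-27156925: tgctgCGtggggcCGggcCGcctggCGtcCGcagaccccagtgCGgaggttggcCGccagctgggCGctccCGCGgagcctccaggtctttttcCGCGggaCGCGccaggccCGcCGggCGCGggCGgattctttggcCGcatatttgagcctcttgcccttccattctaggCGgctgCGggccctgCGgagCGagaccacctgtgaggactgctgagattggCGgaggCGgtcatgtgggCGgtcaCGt

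In the median, CG pairs were frequent whether or not a HOX promoter carried the mark, but some unmarked windows held few. The 250 bases before the start held 27 CG pairs at HOXA6, 24 and 19 at HOXA10, 40 at HOXA13 and 28 at HOXA7. Of the 26 HOX windows of 300 bases, 6 (23.1%) lay over an H3K4me3 peak, against 45.1% of all 34943 windows. The 6 held a median of 27 CG pairs, the same as the median of all windows over a peak. The 20 other HOX windows ranged from 0 to 36 CG pairs. Their median was 20.5, against 4 for all windows not over a peak. The unmarked HOX windows were closer in median CG pairs to marked windows in general than to unmarked ones.

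Motifs were searched on both strands, and matches of different motifs may overlap. CCAAT, the box bound by the factor NF-Y, was in 17 of 26 HOX windows (65.4%) and in 34.6% of all windows of this length. TATAAA was in 5 (19.2%) and in 11.6% of all. GGGCGG, the letters of a GC box, was in 13 (50%) and in 44.9% of all. GCCATNTTG, the letters of a YY1 site, was in 1 (3.85%) and in 2.92% of all, and TGATTNAT, those of a paired PBX and HOX site, was in 2 (7.69%) and in 2.82% of all. A match describes letters only.

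The HOX peaks differed widely in how strongly they were marked. Level per length is given as CPM per kb over the 6 libraries, with its percentile among all tested peaks of the mark. In HOXA, the peak over HOXA13 had an H3K4me3 level of 36.3 CPM per kb (percentile 78.4) and the HOXA6 peak of 251 bp one of 3.09 (percentile 9.03). The highest of HOXC was the peak over HOXC4, HOXC5 and HOXC6, chr12:54017262-54018907, with 19.9 (percentile 53.5). That of HOXD lay between HOXD13 and HOXD12, chr2:176096653-176097876, with 12.4 (percentile 43.6), and that of HOXB was at HOXB7 with 6.08 (percentile 29.5). HOXB7 thus led its cluster at a level that most tested peaks exceeded.

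H3K4me3 rose at HOX peaks at 500 nM JIB-04. Of the 17 HOX peaks, all of which passed the filter on low counts, 12 were higher than in DMSO (70.6%) and none was lower (edgeR quasi-likelihood test, Benjamini-Hochberg adjusted p under 0.05). Over all 20402 tested peaks, 20.7% were higher and 18.7% lower. Among the 12 called, the HOXA6 peak of 251 bp passed the filter mainly through its 500 nM reads. The median log2 fold change of the HOX peaks was 0.53, beside -0.0063 over all peaks, a background that varied with abundance (given below). Both 500 nM libraries were above both DMSO libraries at 14 of the 17, against 33.7% of all peaks. The 12 peaks lay near 13 HOX genes, 8 in HOXA, 3 in HOXB and 2 in HOXD, and none was in HOXC. A mark in a culture is an average over cells, so a change in the share of marked cells and a change per cell cannot be told apart.

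**Figure D1:**
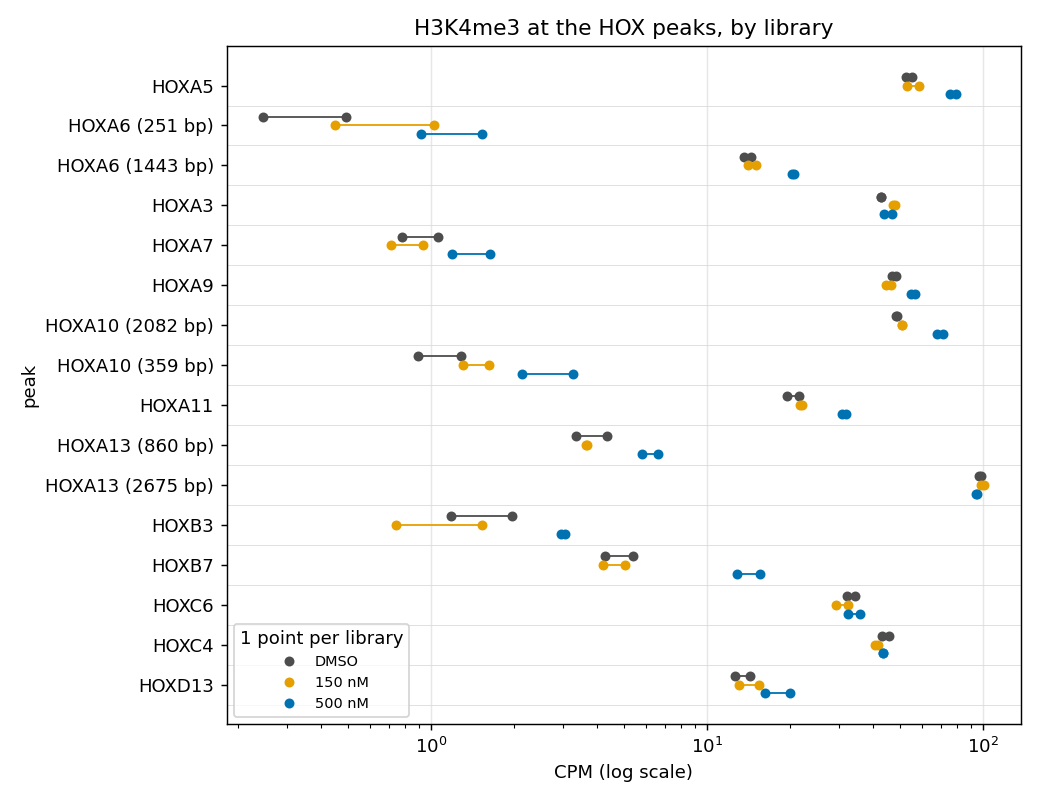
H3K4me3 in CPM (log scale) at 16 of the 17 HOX peaks, with 1 point per library and a line joining the 2 libraries of a treatment; a peak is labelled by the shortest gene it overlaps or else the nearest, with its length where a label repeats. The blue points (500 nM) lie to the right of both other treatments at most HOXA, HOXB and HOXD peaks, and HOXB7 shows 12.8 and 15.5 CPM against 4.25 and 5.40 in DMSO.

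The largest well-measured rise was at HOXB7, whose product is a central-group HOX factor often overexpressed in tumours. The peak chr17:48610139-48611432 covered 1294 bp, overlapped HOXB7 and lay 914 bp from HOXB8. It had counts of 52 and 55 in DMSO, 56 and 45 with 150 nM, and 151 and 152 with 500 nM, or 4.25 and 5.40, 5.02 and 4.19, and 12.8 and 15.5 CPM. Both 500 nM libraries stood above all 4 others, which overlapped among themselves. The log2 fold change against DMSO was 1.56 (SE 0.166, edgeR adjusted p = 1.14e-11), or 2.94-fold. The call held in each of the 14 alternatives run for it, with adjusted p up to 1.05e-07.

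HOXB3, which acts in the hindbrain and in haematopoietic progenitors, had a short peak of 462 bp, chr17:48585570-48586031, and very few reads. Its level was 1.96 and 1.18 CPM in DMSO, 1.52 and 0.745 with 150 nM, and 3.06 and 2.96 with 500 nM. The 500 nM libraries were the highest, and the other treatments overlapped. It had a log2 fold change of 0.91 (SE 0.320, edgeR adjusted p = 0.0196). It was not called without DMSO replicate 2 (adjusted p = 0.22), without 500 nM replicate 1 (0.0814), with loess offsets on abundance (0.253) or in DESeq2 (0.236). Summed over its 2 peaks, HOXB rose from 6.39 ± 0.265 (SD, n = 2) CPM in DMSO to 17.2 ± 1.83 at 500 nM, a ratio of 2.69.

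HOXA changed at 9 of its 12 peaks. The sum over the cluster was 441 and 456 CPM in DMSO, 462 and 451 with 150 nM, and 532.2 and 532.3 with 500 nM. The 500 nM libraries were the highest, with a ratio of 1.19 to DMSO. The best measured rises lay at HOXA5, HOXA6, HOXA10 and HOXA11. The long HOXA3 gene model overlapped 4 peaks. Of these, 3, shared with HOXA5 or HOXA6, were higher, and the one of 2428 bp was not called. The peaks over HOXA7 and HOXA13 were not called either.

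**Figure D2:**
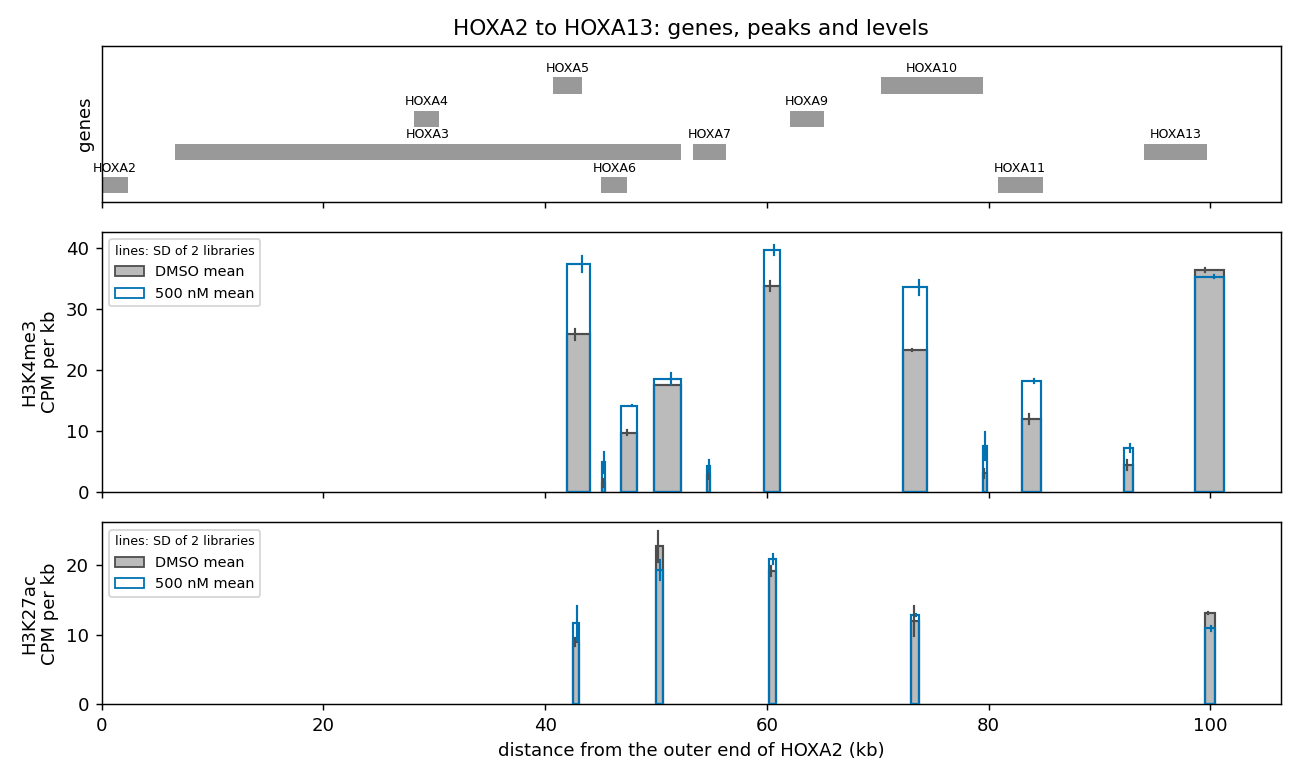
The HOXA cluster by distance in kb from the outer end of HOXA2: gene models from HOXA2 to HOXA13 (top), and the mean level of each peak in CPM per kb for H3K4me3 (middle) and H3K27ac (bottom), with grey bars for DMSO, blue outlines for 500 nM and lines for the SD of 2 libraries. At HOXA5, at HOXA6 (1443 bp) and at HOXA10 the H3K4me3 outline stands above the grey bar, at HOXA13 (2675 bp) it does not, and no peak lies over HOXA2 or HOXA4.

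The HOXA5 peak, chr7:27142319-27144395, also lies inside the long HOXA3 gene model. HOXA5 encodes a factor known for lung and axial skeleton development. It measured 52.3 and 55.1 CPM in DMSO, 58.5 and 52.9 with 150 nM, and 75.7 and 79.6 with 500 nM. Only the 500 nM libraries stood apart. The log2 fold change was 0.53 (SE 0.053, edgeR adjusted p = 1.82e-12). At HOXA10, a posterior-group factor known in the uterus and in blood progenitors, the peak of 2082 bp, chr7:27172673-27174754, holds the inner start printed above. It measured 48.2 and 48.7 CPM in DMSO, 50.6 and 50.7 with 150 nM, and 71.7 and 68.1 with 500 nM, and the 3 treatments did not overlap. The change on the log2 scale was also 0.53 (SE 0.054, edgeR adjusted p = 2.38e-12). Both belong to the second-highest of 5 groups of about equal size by abundance, in which 9.26% of all peaks were higher.

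HOXA11, a posterior-group gene of the forearm and uterus, had a peak of 1715 bp, chr7:27183360-27185074. It measured 19.4 and 21.5 CPM in DMSO, 22.0 and 21.6 with 150 nM, and 31.7 and 30.8 with 500 nM. The highest were again the 500 nM libraries, and the log2 fold change was 0.62 (SE 0.085, edgeR adjusted p = 1.88e-08). The HOXA6 peak of 1443 bp, chr7:27147226-27148668, lies over the HOXA6 window printed above and within HOXA3. It rose from 14.0 ± 0.635 (SD, n = 2) CPM to 20.5 ± 0.178, with a log2 fold change of 0.54 (SE 0.107, edgeR adjusted p = 3.51e-05). The HOXA5, HOXA6 (1443 bp), HOXA10 (2082 bp) and HOXA11 peaks were called in each of 14 alternatives.

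Several short and weak HOXA peaks had larger fold changes with larger errors. The peak of 251 bp over HOXA6, chr7:27145504-27145754, measured 0.245 and 0.491 CPM in DMSO, 0.448 and 1.02 with 150 nM, and 1.53 and 0.919 with 500 nM. Values with 500 nM exceeded DMSO and overlapped with 150 nM. Its counts were 3 and 5 in DMSO, 5 and 11 with 150 nM, and 18 and 9 with 500 nM. It therefore passed the filter on low counts mainly through the 500 nM libraries. Its log2 fold change was 1.78 (SE 0.554, edgeR adjusted p = 0.00808), the largest of the 17. With no filter it was still called (edgeR adjusted p = 0.0155). The call was lost without DMSO replicate 1 (adjusted p = 0.178), without 500 nM replicate 1 (0.176), with loess offsets (0.133) and in DESeq2 (0.166).

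The outer HOXA10 start lay under a peak of 359 bp, chr7:27179824-27180182. It measured 0.898 and 1.28 CPM in DMSO, 1.61 and 1.30 with 150 nM, and 2.13 and 3.27 with 500 nM, and the 3 treatments did not overlap. It had a log2 fold change of 1.30 (SE 0.358, edgeR adjusted p = 0.00272). This call was lost without DMSO replicate 1 (adjusted p = 0.078), without 500 nM replicate 2 (0.0728), with loess offsets (0.0659) and in DESeq2 (0.0863).

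A peak of 860 bp, chr7:27192517-27193376, lay 988 bp downstream of HOXA13, the gene of the distal limb and genital tract that is mutated in hand-foot-genital syndrome. It measured 3.35 and 4.32 CPM in DMSO, 3.67 and 3.63 with 150 nM, and 6.63 and 5.82 with 500 nM. The 500 nM libraries were the highest. Its log2 fold change was 0.72 (SE 0.209, edgeR adjusted p = 0.00446), and the call was lost without DMSO replicate 1 (adjusted p = 0.109), without 500 nM replicate 1 (0.0658), with loess offsets (0.0735) and in DESeq2 (0.128). The peak over HOXA13 itself, chr7:27198939-27201613, was not called. It measured 97.9 and 96.8 CPM in DMSO, 101 and 97.8 with 150 nM, and 93.9 and 95.1 with 500 nM. Here the 500 nM libraries were the lowest, but the log2 fold change was -0.04 (95% interval -0.13 to 0.04, edgeR adjusted p = 0.452).

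The change at HOXA9 was smaller. HOXA9 encodes a posterior-group factor of haematopoietic stem cells that is a hallmark of several leukaemias. Its peak, chr7:27160116-27161519, lay 919 bp downstream of the gene, away from its start. It rose from 47.4 ± 1.26 (SD, n = 2) to 55.8 ± 1.19 CPM, a log2 fold change of 0.24 (SE 0.057, edgeR adjusted p = 6.29e-04). It was not called in DESeq2 (adjusted p = 0.0833). The HOXA9 promoter window lay over no H3K4me3 peak and was 3969 bp from the nearest.

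Besides HOXA13 itself, 2 HOXA peaks were not called. At HOXA3, chr7:27150145-27152572, the log2 fold change was 0.09 (95% interval -0.03 to 0.21, edgeR adjusted p = 0.277). At HOXA7, chr7:27154922-27155254, with 1.06 and 0.786 CPM in DMSO and 1.19 and 1.63 at 500 nM, it was 0.57 (95% interval -0.26 to 1.40, edgeR adjusted p = 0.294). The interval at HOXA7 includes changes as large as those at its neighbours, while that at HOXA3 does not reach the 0.53 of HOXA5.

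Neither HOXC peak within 2 kb was called. HOXC4 is a HOX gene expressed in germinal-centre B cells. The peak inside HOXC4, chr12:54052757-54055038, measured 45.7 and 42.8 CPM in DMSO, 41.5 and 40.6 with 150 nM, and 43.4 and 43.4 with 500 nM. Its 500 nM libraries lay between the DMSO libraries, with a log2 fold change of -0.03 (95% interval -0.16 to 0.09, edgeR adjusted p = 0.715). The peak over HOXC4, HOXC5 and HOXC6 measured 34.3 and 32.1 CPM in DMSO, 32.3 and 29.3 with 150 nM, and 35.9 and 32.3 with 500 nM, and DMSO and 500 nM overlapped. Its log2 fold change was 0.04 (95% interval -0.10 to 0.18, edgeR adjusted p = 0.706), and it turned negative without DMSO replicate 2 (-0.01) or 500 nM replicate 1 (-0.05). The HOXC sum was 77.5 ± 3.59 (SD, n = 2) CPM in DMSO and 77.5 ± 2.52 at 500 nM.

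In HOXD, the peak lay 709 bp downstream of HOXD13, the digit-patterning gene mutated in synpolydactyly, and 1919 bp from HOXD12. The HOXD13 promoter window was 3883 bp from the nearest H3K4me3 peak, and the HOXD12 window 1669 bp. The peak measured 12.6 and 14.2 CPM in DMSO, 13.0 and 15.4 with 150 nM, and 19.9 and 16.1 with 500 nM. Both values with 500 nM were above all others. The log2 fold change was 0.45 (SE 0.118, edgeR adjusted p = 0.00186). The call was lost without 500 nM replicate 1 (adjusted p = 0.161) or in DESeq2 (0.0997).

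DESeq2 called fewer peaks throughout. It called 5 HOX peaks higher, at HOXB7, HOXA5, HOXA6 (1443 bp), HOXA10 (2082 bp) and HOXA11, where 9.8% of all tested peaks were higher. With loess offsets, which remove a trend with abundance, 8 HOX peaks were higher against 17.2% of all.

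Abundance moved with the change over all peaks, so the HOX peaks were also set beside peaks of like level. In 5 groups of about equal size, from the lowest to the highest mean abundance, 26.0%, 34.1%, 29.1%, 9.26% and 4.83% of all peaks were higher at 500 nM than in DMSO. The HOX peaks called were 3 of 4, 2 of 2, 4 of 7, 2 of 2 and 1 of 2 in those groups. The median log2 fold change of all peaks was 0.437, 0.201, 0.016, -0.045 and -0.059 in the same order. Weak peaks thus rose in general, and the large changes of the short HOX peaks are to be read against that. The counts per group are too few to rank the groups, and the part of abundance in the HOX result was not tested beyond this and the loess offsets.

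**Figure D3:**
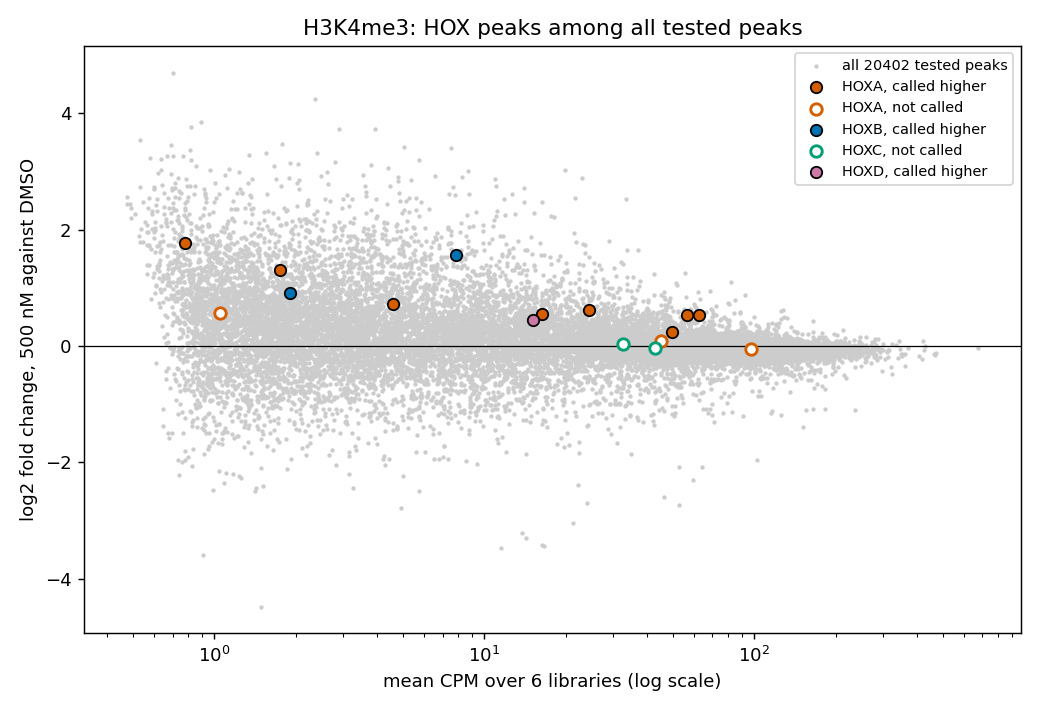
Mean H3K4me3 CPM over 6 libraries (log scale) against the log2 fold change of 500 nM against DMSO, with all 20402 tested peaks in grey and 16 HOX peaks coloured by cluster (filled where called higher). Most HOXA, HOXB and HOXD peaks lie above the line at 0. The most abundant HOX peak drawn, HOXA13 (2675 bp), lies just below it, and both HOXC peaks lie close to it.

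The 500 nM libraries were also set against the 150 nM libraries, a comparison that shares the 500 nM libraries with the one above. Of the 17 HOX peaks 11 were higher and none lower, where 20.5% of all peaks were higher and 18.6% lower. The median log2 fold change was 0.47 (all peaks 0.0001). By abundance group, the median over all peaks ran from 0.377 in the lowest to -0.056 in the highest. The largest was HOXB7 with 1.61 (SE 0.168, edgeR adjusted p = 6.30e-12), then HOXB3 with 1.39 (SE 0.348), HOXA10 (359 bp) with 0.86 (SE 0.336) and HOXA13 (860 bp) with 0.78 (SE 0.212). HOXA11 followed with 0.52 (SE 0.084), HOXA6 (1443 bp) with 0.49 (SE 0.106), HOXA5 with 0.47 (SE 0.053) and HOXA10 (2082 bp) with 0.47 (SE 0.054). HOXD12/HOXD13 had 0.36 (SE 0.117) and HOXA9 0.30 (SE 0.058). The HOXA6 peak of 251 bp was not called here (0.77, SE 0.474, adjusted p = 0.202).

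Several calls in that comparison depended on 1 library. HOXB3 was lost without 150 nM replicate 2 (adjusted p = 0.0634), and HOXD12/HOXD13 without 150 nM replicate 1 (0.215) or 500 nM replicate 1 (0.36). HOXA10 (359 bp) was lost without 150 nM replicate 1 (0.0938), 150 nM replicate 2 (0.217) or 500 nM replicate 2 (0.325). DESeq2 called 6 HOX peaks higher, where 9.44% of all peaks were. Among those it did not call were HOXB3 (DESeq2 adjusted p = 0.0553), HOXA13 (860 bp, 0.0927), HOXD12/HOXD13 (0.208) and HOXA10 (359 bp, 0.287). With loess offsets, HOXD12/HOXD13 (edgeR adjusted p = 0.12) and HOXA10 (359 bp, 0.307) were also lost.

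At 150 nM against DMSO no HOX peak was called by edgeR or DESeq2, where edgeR called 0.0% of all peaks. At an unadjusted p under 0.05 there were 950 of all peaks (4.66%) and 1 HOX peak, at HOXA3. That peak measured 42.46 and 42.53 CPM in DMSO, 47.8 and 47.0 with 150 nM, and 46.7 and 43.5 with 500 nM. Its 150 nM libraries were the highest. The log2 fold change was 0.16 (SE 0.061), with an unadjusted p of 0.0143 in the edgeR fit across all peaks. The median over the HOX peaks was 0.03, beside 0.001 over all peaks. At HOXB7 the log2 fold change of 150 nM against DMSO was -0.05 (95% interval -0.47 to 0.36).

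H3K27ac was not called at any HOX peak. In 500 nM against DMSO 0 of 12 HOX peaks passed the edgeR threshold, where 0.923% of all 54037 tested peaks did, and 0 passed in 500 nM against 150 nM (1.27% of all) and in 150 nM against DMSO (0.00185% of all). DESeq2 also called 0 in each, and at an unadjusted p under 0.05 there was 0 of 12 in the last 2 comparisons (10.2% and 3.94% of all). The depth at these peaks was lower, with a median of 50.3 counts per library against 268 at the H3K4me3 HOX peaks. For 500 nM against DMSO the HOX median was 0.13 on the log2 scale, beside -0.004 over all peaks. At an unadjusted p under 0.05 there were 11.5% of all peaks and 2 of the 12, both in HOXC.

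**Figure D4:**
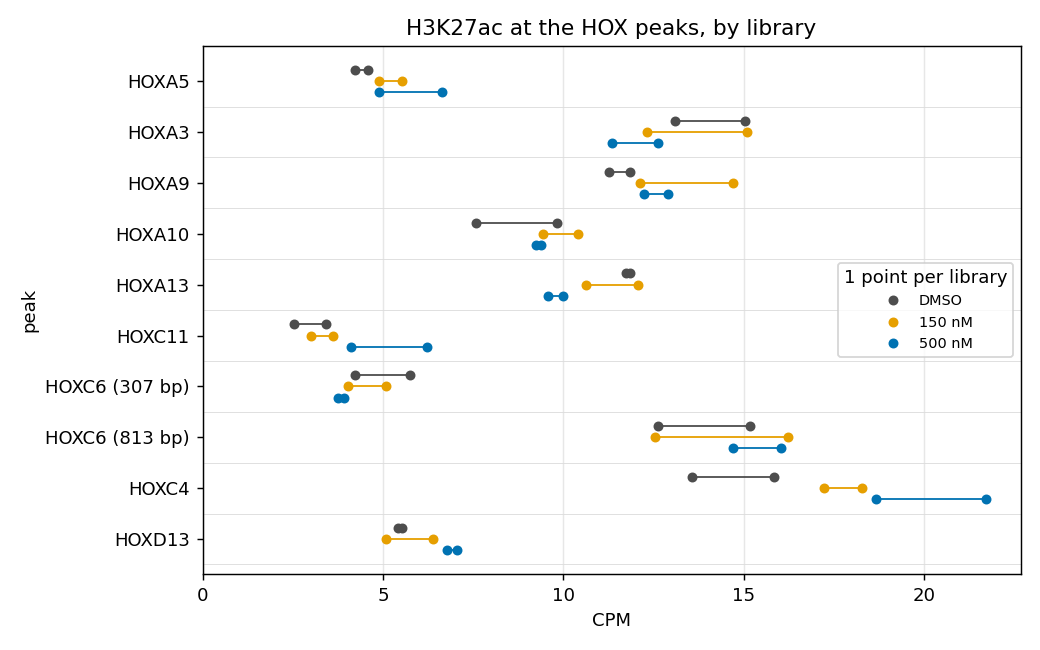
H3K27ac in CPM at 10 of the 12 HOX peaks, with 1 point per library and a line joining the 2 libraries of a treatment. The treatments overlap or lie close at most peaks, and HOXC4 shows 18.7 and 21.7 CPM at 500 nM against 13.6 and 15.8 in DMSO.

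The first of these was inside HOXC4, chr12:54052724-54054318, which measured 13.6 and 15.8 CPM in DMSO, 17.2 and 18.3 with 150 nM, and 18.7 and 21.7 with 500 nM. The 3 treatments did not overlap, and the log2 fold change of 500 nM against DMSO was 0.45 (SE 0.184, unadjusted p = 0.0183, edgeR adjusted p = 0.305). The other was at HOXC11, a posterior-group gene and the one HOX gene with H3K27ac and no H3K4me3 peak. Its peak, chr12:53977579-53978310, measured 2.53 and 3.41 CPM in DMSO, 3.61 and 3.02 with 150 nM, and 6.22 and 4.11 with 500 nM. The 500 nM libraries were the highest, with a log2 fold change of 0.78 (SE 0.373, unadjusted p = 0.0405, edgeR adjusted p = 0.408). Neither passed the adjusted threshold in any of the alternatives run.

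The highest H3K27ac level per length in HOXA was at HOXA3, chr7:27150330-27150948, with 21.4 CPM per kb. Its log2 fold change was -0.24 (95% interval -0.64 to 0.17, edgeR adjusted p = 0.722). In HOXC it was the peak of 813 bp over HOXC4, HOXC5 and HOXC6, chr12:54018132-54018944, with 17.9 CPM per kb and a change of 0.15 (95% interval -0.24 to 0.54, adjusted p = 0.834). In HOXD it was the peak chr2:176097300-176097760, with 13.1 CPM per kb and 0.34 (95% interval -0.23 to 0.90, adjusted p = 0.71). The intervals at the last 2 reach above 0.5, so a rise as large as the 0.53 of HOXA5 in H3K4me3 lies within both. The peaks at HOXA5, HOXA9, HOXA10 and HOXA13 had changes of -0.27 to 0.39, and the peak of 307 bp over HOXC4, HOXC5 and HOXC6 had -0.36 (SE 0.345).

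Of the H3K27ac libraries, DMSO replicate 2 and 150 nM replicate 2 had 71.5 and 45.9 CPM in 5 peaks on unplaced contigs, against 322 to 446 in the 4 others. A term for this split left the count of HOX calls at 0 in each comparison.

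**Figure D5:**
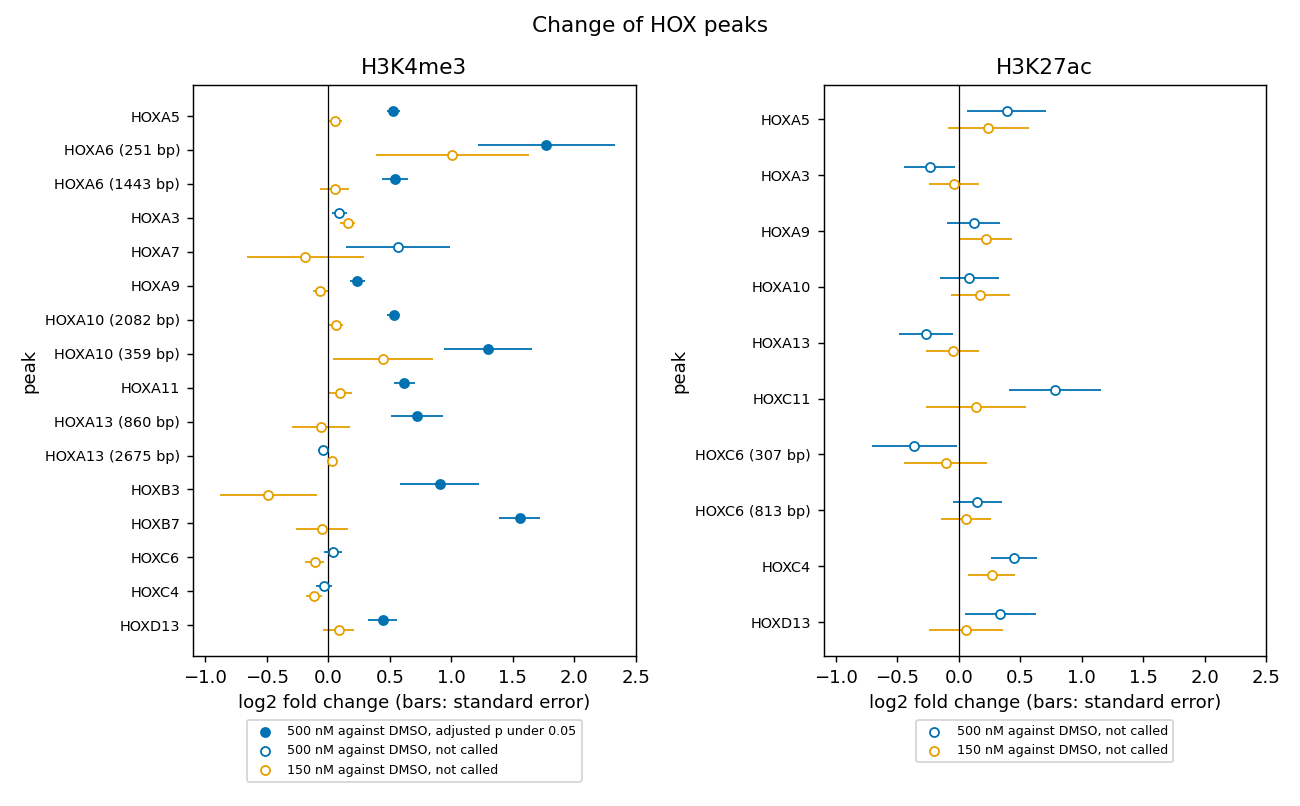
The log2 fold change of 16 HOX peaks for H3K4me3 (left) and 10 for H3K27ac (right), at 500 nM (blue) and 150 nM (orange) against DMSO, with bars for the standard error and filled points for an adjusted p under 0.05. At left 11 blue points are filled and no orange point is, and at right no point is filled.

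The overlap of the 2 marks was counted with no test. An H3K27ac peak overlapped 9 of the 17 (52.9%), against 79.6% of all H3K4me3 peaks within 2 kb of a gene. Conversely, 11 of the 12 HOX H3K27ac peaks (91.7%) overlapped an H3K4me3 peak, against 35.4% of those within 2 kb of a gene. Of the 9 HOX peaks with H3K27ac, 5 were higher at 500 nM and the log2 fold changes ran from -0.04 to 0.53, with a median of 0.10. Of the 8 without it, 7 were higher and the values ran from 0.54 to 1.78, with a median of 0.81. Those 8 were HOXB3, HOXB7, both HOXA6 peaks, HOXA7, HOXA10 (359 bp), HOXA11 and HOXA13 (860 bp). They were also weaker, with 0.368 to 20.5 CPM in DMSO against 13.4 to 118, so the overlap and the level cannot be told apart in these 17 peaks.

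Another 5 tested H3K4me3 peaks within the clusters lay more than 2 kb from any HOX gene. The one with the highest CPM overlapped LOC401021, chr2:176140377-176141058, and measured 8.98 and 9.23 CPM in DMSO, 7.62 and 8.75 with 150 nM, and 10.6 and 9.19 with 500 nM. The DMSO and 500 nM libraries overlapped and the 150 nM libraries were the lowest, with a log2 fold change from DMSO to 500 nM of 0.13 (SE 0.149, edgeR adjusted p = 0.51). The peak over HAGLR and HAGLROS, noncoding RNAs of the HOXD cluster, chr2:176177799-176178751, measured 2.53 and 2.55 CPM in DMSO, 2.87 and 2.51 with 150 nM, and 5.27 and 7.25 with 500 nM. Its 500 nM libraries were the highest, with a log2 fold change of 1.28 (SE 0.235, edgeR adjusted p = 1.03e-05). The peak over HOXC-AS2, chr12:53995555-53996238, lay 3923 bp from HOXC9. It measured 0.735 and 1.18 CPM in DMSO, 1.07 and 0.838 with 150 nM, and 2.64 and 2.04 with 500 nM, a log2 fold change of 1.32 (SE 0.378, edgeR adjusted p = 0.00387). HOXC thus had a called H3K4me3 peak outside the 2 kb limit. A peak 2439 bp from HOXC8 had 0.92 (edgeR adjusted p = 0.0849). A weak one of 266 bp over HOTTIP, the noncoding RNA beside HOXA13, had 0.58 (edgeR adjusted p = 0.318). The HOTTIP promoter window itself lay over the HOXA13 peak of 2675 bp described above, which was not called.

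Noncoding RNA genes lie among the HOX genes of the clusters. Of 24 such genes, 8 had a tested H3K4me3 peak within 2 kb, and at 7 a peak was higher at 500 nM than in DMSO and at 0 lower. Over all 20214 genes with a tested peak, 23.5% had one that was higher and 24.5% one that was lower. The 7 were HOTAIRM1, HOXA-AS3, HOXA10-AS, HOXA11-AS, HOXC-AS2, HAGLR and HAGLROS. HOTAIRM1, HOXA-AS3, HOXA10-AS and HOXA11-AS rest on HOX peaks already counted above, so they are not a separate result. HOXC-AS2, HAGLR and HAGLROS rest on the peaks described above that lie over 2 kb from a HOX gene, and HAGLR and HAGLROS share the same peak. Their H3K27ac had no call, where 1.68% of all genes with a tested H3K27ac peak had one that was higher.

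Genes that regulate or accompany HOX genes were counted in the same way in H3K4me3 at 500 nM against DMSO, to be read against the 23.5% of all genes with a higher peak and the 24.5% with a lower one. Of 11 TALE-class genes, whose products bind DNA together with HOX proteins, 10 had a tested peak. Of these, 5 had one that was higher and 4 one that was lower, with MEIS2 and PBX3 in both counts. By peak, 6 of their 21 tested ones were higher and 5 lower, against 20.7% and 18.7% of all tested peaks. MEIS2 had a peak with a log2 fold change of 1.36 (SE 0.296) and another with -0.89 (SE 0.285), while MEIS3 had 1.18 (SE 0.266). PBX3 had a peak with 0.52 (SE 0.113) and another with -0.44 (SE 0.183). MEIS1 had -0.40 (SE 0.112), and a different MEIS1 peak was higher in H3K27ac (0.83, SE 0.204, edgeR adjusted p = 0.0246).

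Of 16 trithorax-type activators, all with a peak, 3 had one that was higher, a share not above that of all genes. In 7 a peak was lower, with MLLT3 in both. By peak, 3 of their 30 tested ones were higher and 9 lower, against 20.7% and 18.7% of all tested peaks. In the most abundant of the 5 groups of peaks, 34.1% of all were lower. KDM6B, a demethylase of H3K27me3, fell by 0.41 on the log2 scale (SE 0.036) and the related KDM6A by 0.22 (SE 0.040). MLLT3, a reader in the elongation complex, had peaks at 0.30 (SE 0.043) and -0.91 (SE 0.154), AFF1 had 1.05 (SE 0.394) and MEN1, the MLL cofactor menin, 0.13 (SE 0.055). Of 22 Polycomb genes, all with a peak, 3 had one higher and 3 one lower, with CBX7 in both, so neither share was above that of all genes. PCGF1 had 0.82 (SE 0.086) and BMI1 0.18 (SE 0.057), both subunits of the ubiquitin-ligase complex. CBX7 had 0.39 (SE 0.056) and -0.13 (SE 0.052), and PHF19, a partner of the methyltransferase complex, had -1.14 (SE 0.170). EZH1, one of the H3K27 methyltransferases, was higher in H3K27ac (1.70, SE 0.439, edgeR adjusted p = 0.0386).

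Of 14 genes flanking the clusters, 10 had a tested H3K4me3 peak, 3 had one higher and 1 one lower, with SNX10 in both. SMUG1, a DNA glycosylase beyond HOXC, had 1.26 (SE 0.239) and TTLL6, beside HOXB13, 0.90 (SE 0.140). SNX10 had 0.19 (SE 0.050) and -0.24 (SE 0.041). Of 15 other homeobox genes only GSX2 and MNX1 had a peak, and both were higher. GSX2 rose from 2.33 ± 0.177 (SD, n = 2) to 9.99 ± 1.03 CPM, with a log2 fold change of 2.09 (SE 0.211), and MNX1 had 0.42 (SE 0.047).

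The germinal-centre B-cell markers moved in the same libraries. At 500 nM against DMSO, 8 of the 10 had an H3K4me3 peak that was lower, and 1, MEF2B, had one that was higher, where 24.5% of all genes with a tested peak had a lower one and 23.5% a higher one. By peak, 12 of their 23 tested ones were lower and 1 higher, against 18.7% and 20.7% of all tested peaks. In the most abundant of the 5 groups of peaks, 34.1% of all were lower. The 23 marker peaks summed in H3K4me3 to 2017 and 2072 CPM in DMSO, 2062 and 2080 with 150 nM, and 1829 and 1873 with 500 nM, so the 500 nM libraries were the lowest. The myeloid marker CD14 had a higher peak, with 9.72 and 11.8 CPM in DMSO, 10.5 and 12.6 with 150 nM, and 16.5 and 17.8 with 500 nM, while LYZ, CSF1R, ITGAM and MPO had no peak of either mark. None of the 3 T-cell markers with an H3K4me3 peak was called, and their 4 peaks summed to 60.4 and 63.6 CPM in DMSO, 55.1 and 56.1 with 150 nM, and 63.6 and 64.9 with 500 nM. In H3K27ac the T-cell marker TRAC, a T-cell receptor constant gene, was higher at 500 nM than in DMSO (log2 fold change 0.55, SE 0.112, edgeR adjusted p = 0.0039), where 1.68% of all genes had a higher peak. The 7 H3K27ac peaks of 5 T-cell markers summed to 358 and 386 CPM in DMSO, 375 and 413 with 150 nM, and 444 and 431 with 500 nM, so the 500 nM libraries were the highest. The part of these changes in the HOX result was not tested.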

How the data were processed

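H3K4me3 and H3K27ac ChIP-seq of OCI-Ly1 was analysed from deposited tables of read counts per consensus peak, not normalized. Per the file headers, the authors counted with featureCounts 2.0.1, unstranded, with reads shared by neighbouring peaks counted in each and an overlap fraction of 0.2. Whether a count is a read or a fragment is open, since the headers set the paired-read option while single 50 bp reads are stated per the labels' protocols. Per the submitters' processing notes, the tools included Trim Galore 0.6.7, BWA 0.7.17-r1188, Picard 2.27.4, MACS2 2.2.7.1, deepTools 3.5.1 and edgeR 3.42.4, with the build GRCh38. How the consensus was made is not given in the sources used here. The other deposited columns used hold peak position and length. Starts were raised by 1 because the lowest deposited start is 0. Input, H3K9me2 and H3K9me3 libraries (18) were not analysed here.

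The test was that of edgeR 4.0.16 (R 4.3.3). The 6 libraries of a mark entered one fit by treatment, after filterByExpr and TMM, with glmQLFTest and Benjamini-Hochberg adjustment over all tested peaks at 0.05. Standard errors came from the F statistic, and intervals are 1.96 standard errors to each side. In all 3 comparisons per mark every HOX peak was tested. Groups and replicate numbers came from titles. On simulated counts with 200 peaks changed by 1 on the log2 scale, the step recovered 80.5% (500 nM against DMSO) among 20097 H3K4me3 peaks and 46% among 51887 H3K27ac peaks. No molecular identifiers were used, so reads may repeat molecules, and n = 2 per group gives single peaks little precision.

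Members, lists and tests were chosen with earlier results of these data known. HOX peaks were named by rule: up to 12 called per direction by size of change, the 6 largest with each library's value, and the peak of highest CPM per kb per cluster. Per other list up to 3 genes per direction were named. Some items that these rules select are counted but not reported here. Values by library for further peaks were added after seeing them. A gene counts as higher or lower if any peak within 2 kb is.

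Alternatives were median-of-ratios size factors, scaling by total count, loess offsets, no filter, a mean count of at least 50, a replicate block, the 4 libraries of a contrast, DESeq2 1.42.0, an adjusted p under 0.01, peaks overlapping a gene or within 5 kb, each library left out, and a term for the H3K27ac split. Figures used matplotlib 3.10.9.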

Additional observations from a re-analysis of the deposited data

How the results depend on the processing

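Across the alternatives, no HOX peak was called in H3K27ac or in H3K4me3 at 150 nM against DMSO, and no HOX peak was called lower in H3K4me3 at 500 nM. The H3K4me3 calls numbered 12 (500 nM against DMSO) and 11 (500 nM against 150 nM). DESeq2 called 5 and 6; the cause was not tested. Leaving out 1 library gave 8 to 11 calls in either comparison. Where 1 library of an arm was left out, the lone library was assumed to vary like the other groups. With a replicate block the calls were 12, 11 and 0 in H3K4me3 and 0 in H3K27ac; deviations of same-numbered libraries correlated at 0.00262 to 0.133, so the numbers were not taken to pair them.

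The HOX median log2 fold change of H3K4me3 at 500 nM against DMSO (0.532) was 0.567 with total counts, 0.423 with loess offsets, 0.467 with a mean count of at least 50, 0.538 over overlapping peaks, 0.57 within 5 kb and 0.52 to 0.548 without single libraries. Against 150 nM (0.475) the same settings gave 0.507, 0.3, 0.38, 0.483, 0.49 and 0.425 to 0.496. At 150 nM against DMSO (0.03) it was 0.035 with loess offsets, -0.004 with the 4 libraries of the contrast, 0.041 over overlapping peaks and -0.006 to 0.073 without single libraries. The H3K27ac medians, over 6 peaks with a mean count of at least 50, were -0.031 at 500 nM and -0.006 at 150 nM against DMSO (0.135 and 0.101 over 12 peaks). Against 150 nM (-0.061) the median was 0.036 with the term for the split and -0.158 to 0.058 without single libraries. The peak over HOXC4, HOXC5 and HOXC6 (0.04) had -0.006 without DMSO replicate 2 and ranged from -0.047 (without 500 nM replicate 1) to 0.105 (without 500 nM replicate 2). The median count per peak and library was 21 to 24 in H3K27ac and 263 to 328 in H3K4me3.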
